A study of Mus musculus with 12 samples.

Results

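The genes described here are 10 interferon-inducible GTPases, chosen by name: the guanylate-binding proteins Gbp2, Gbp3, Gbp4, Gbp5, Gbp6, Gbp7, Gbp8 and Gbp9, and the immunity-related GTPases Irgm1 and Igtp (also called Irgm3). All 10 were among the 55228 gene symbols of the expression table, and all 10 were among the 15043 that passed a filter of a mean of at least 1 TPM (TPM is transcript abundance per length, scaled to the same total in each library). They were measured by RNA-seq in 12 libraries of mouse regulatory T cells (Tregs), 3 in each of 4 groups. Every group was made from the same start: Tregs of NOD.Foxp3-GFP mice, pooled from the lymph nodes of 16 mice, split into 3 parts, activated, transduced with a retrovirus on day 2, washed on day 4, and sorted on day 9 for the Thy1.1 reporter that all of the vectors carry. The EV no IL-2 group carried the empty vector (EV) and was cultured for the last 5 days without IL-2. The EV+IL-2 group carried the same vector and received IL-2. By the paper's methods, the EV+IL-2 cells were the part of the empty-vector culture left in medium with IL-2. In the other groups, the wash on day 4 removed the IL-2 of the earlier culture. The 1G12t and 3A10t groups received no IL-2 after it and carried a vector in which the orthogonal IL-2 variant 1G12 or 3A10 is joined through a CD25 linker to the orthogonal IL-2Rβ, so that agonist and receptor chain come from the same construct. The 3 replicates of a group share 1 pool of mice and differ in the sort and culture, so the spread between them is that of the sort, the culture and the library, and not of animals. Vector integration sites are mixed in each library.

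Guanylate-binding proteins (GBPs) and immunity-related GTPases (IRGs) are cell-autonomous defence proteins. They assemble on the membranes of vacuoles that hold bacteria or parasites and help to break them open, and several GBPs also promote inflammasome signalling. Their genes are classical targets of interferon gamma, which acts on the GAS motif, and of type I interferon, which acts on the ISRE motif, and they are expressed in T cells as well as in macrophages. IL-2 signals through STAT5, whose dimers also bind GAS-type motifs.

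The members lie in 3 clusters on GRCm38. On chromosome 3 are Gbp5 (chr3:142493978-142522344), Gbp7 (chr3:142530342-142550149), Gbp3 (chr3:142560026-142573209) and Gbp2 (chr3:142620602-142638008), all on the plus strand. On chromosome 5, on the minus strand, are Gbp8 (chr5:105014150-105139540), Gbp9 (chr5:105077630-105139539), Gbp4 (chr5:105115767-105139586) and Gbp6 (chr5:105270702-105293698). The gene models of Gbp8, Gbp9 and Gbp4 run into the same 5′ end and share 60 exon bases. On chromosome 11 are Irgm1 (chr11:48861968-48871683, minus strand) and Igtp (chr11:58199556-58207591, plus strand), and 162 exon bases of Igtp, 8.0% of its exon bases, overlap those of Irgm2. The coding sequences within the chromosome 5 cluster were 90.2% to 92.9% identical, whereas Gbp2 and Gbp5 of chromosome 3 were 72.1% identical and Gbp3 and Gbp7 78.6%.

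RefSeq windows around the start site were held for 6 of the 10 members (Gbp2, Gbp3, Gbp5, Gbp7, Irgm1 and Igtp). They were searched on both strands for GAS, spelled TTCNNNGAA, and ISRE, spelled as GAAA, any 2 bases and GAAA, and all 6 held an ISRE match (Gbp3 in 1 of its windows). Among all 32851 RefSeq windows of the same length, 250 bases before the start site to 50 after, 3.44% held this ISRE, 8.3% held this GAS and 0.454% held both. Of the 6 members, Gbp5, Gbp7 and Igtp held both. The 250 bases before the start site are printed for 3 members, because they set a gene that rose with IL-2 (Igtp) beside 2 that were not called (Gbp7 and Gbp3), with both motifs in the first pair and the ISRE alone in Gbp3. Capitals mark the GAS and ISRE matches, each sequence is given 5′ to 3′ on the plus strand, which is the strand of these genes, and the build is GRCm38.p6.
Igtp, chr11:58199306-58199555, plus strand: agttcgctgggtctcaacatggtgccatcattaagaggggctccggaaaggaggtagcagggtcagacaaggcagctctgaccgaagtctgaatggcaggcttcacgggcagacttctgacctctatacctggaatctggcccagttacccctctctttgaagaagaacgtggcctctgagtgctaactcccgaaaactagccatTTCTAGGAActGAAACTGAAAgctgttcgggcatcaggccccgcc
Gbp7, chr3:142530086-142530335, plus strand: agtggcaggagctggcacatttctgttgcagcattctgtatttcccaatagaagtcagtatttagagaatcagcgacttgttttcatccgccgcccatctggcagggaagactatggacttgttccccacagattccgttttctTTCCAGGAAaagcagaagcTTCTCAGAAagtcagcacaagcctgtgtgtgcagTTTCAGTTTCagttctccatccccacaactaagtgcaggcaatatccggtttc
Gbp3, chr3:142559794-142560043, plus strand: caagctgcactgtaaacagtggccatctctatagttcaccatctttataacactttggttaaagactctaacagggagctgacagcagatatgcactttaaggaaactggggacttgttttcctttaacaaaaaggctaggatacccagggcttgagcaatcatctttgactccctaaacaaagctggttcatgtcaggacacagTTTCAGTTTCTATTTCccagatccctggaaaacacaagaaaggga
In Igtp the GAS match began 45 bases and the ISRE match 34 bases before the start site. In Gbp7 there were 2 GAS matches, at 106 and 87 bases, and an ISRE match at 53. In Gbp3 there were 2 overlapping ISRE matches, at 45 and 39 bases, and Irgm1 and Gbp2, not printed here, held the ISRE without GAS. These are matches of letters, and binding was not measured.

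The libraries were those of Tregs by their markers. Foxp3, which defines the lineage, was between 369 and 510 scaled TPM in all 12 libraries, although the 3A10t libraries, at 369 to 463, lay below the 484 to 510 of the other groups. The 3 markers of NK cells summed to under 1 scaled TPM in each library, and of 5 myeloid markers 1 passed the filter. That gene, Cst3, gave nearly all of the myeloid sum of 441 to 764 and was highest in 3A10t replicate 2, at 762.5, while Lyz2, S100a8 and S100a9 stayed under 1. Markers of B cells summed to 14.2 to 27.2 scaled TPM and markers of CD8 T cells to 3.45 to 6.51. TPM hold no read depth, so no counting error can be given for any value. Scaled TPM are the deposited TPM divided by a library factor, 0.854 to 1.09, that makes the median gene level equal, and every log2 fold change below is a difference of log2(scaled TPM + 1), with its standard error (SE) and adjusted p from limma over all genes tested. In bulk libraries, fewer cells with a transcript and less of it in each cell cannot be told apart. The 3A10t libraries differed among themselves: replicates 2 and 3 were low in transcripts of 4 to 6 kb and high in those under 2 kb, more than replicate 1. For genes whose longest annotated transcript is 4 to 6 kb, the median difference from EV no IL-2 was -0.04, -0.27 and -0.18 on the log2 scale in 3A10t replicates 1, 2 and 3, and for genes under 2 kb it was 0.02, 0.33 and 0.12. Over 6 kb it was -0.02, -0.15 and -0.04, so that replicate 3 was not apart from the other groups' libraries there (-0.09 to 0.24). The members run from 2022 bases (Igtp) to 5614 bases (Gbp7) by this measure.

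**Figure D1:**
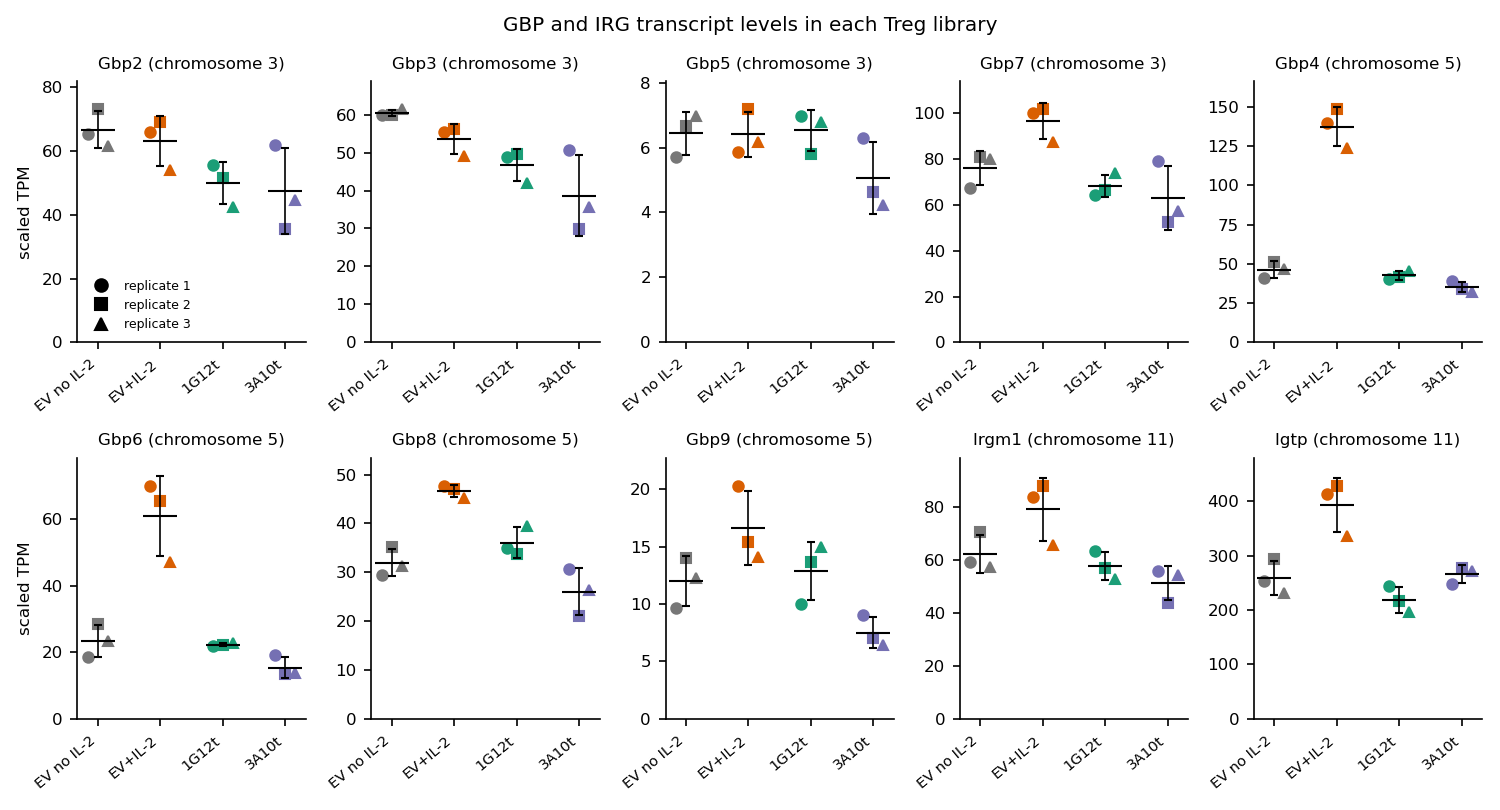
Scaled TPM (vertical axis, from 0) of each of the 10 GTPase genes in each library of the 4 Treg groups (horizontal axis). Points are libraries, with the marker giving the replicate number, and bars are the mean ± SD of 3 libraries. Gbp4 and Gbp6 stand at 124 to 148 and 47.3 to 70 in EV+IL-2 Tregs, and no library of another group exceeds 51.1 and 28.4.

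Comparing EV+IL-2 with EV no IL-2 asks how these genes differed between cells with IL-2 and cells from which it had been washed away. All libraries were of day 9, so a rise with IL-2 and a fall after its removal cannot be told apart. Below, a gene that rose or fell with IL-2 is one higher or lower in EV+IL-2 than in EV no IL-2. With IL-2, 4 of the 10 members were higher past an adjusted p of 0.05, Gbp4, Gbp6, Gbp8 and Igtp, and none was lower. Over all genes tested, 8.17% were called higher, 5.13% lower and 13.3% in either direction. Gbp4 rose about 3-fold, Gbp6 2.6-fold, and Igtp and Gbp8 about 1.5-fold. At an unadjusted p under 0.05, 7 members were higher and 0 were lower, beside 13.9% and 12.4% of all genes. The median log2 fold change of the members was 0.39, beside -0.01 for all genes tested.

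Gbp4 and Gbp6, of the chromosome 5 cluster, had the widest separation. Mouse GBP4 has been described as a brake on IRF7, and GBP6 as a factor of resistance to mycobacteria. Gbp4 was at 40.7, 51.1 and 47 scaled TPM in EV no IL-2 and at 140, 148 and 124 in EV+IL-2. All 3 EV+IL-2 libraries were above all 3 EV no IL-2 libraries, and the log2 fold change was 1.55 (SE 0.11, adjusted p = 1.0e-05), a ratio of means of 2.97. Gbp6 was at 18.5, 28.4 and 23.3 without IL-2 and at 70, 65.3 and 47.3 with it. Here too the groups did not overlap, although EV+IL-2 replicate 3 was lower than its fellows, and the log2 fold change was 1.34 (SE 0.19, adjusted p = 0.00076), a ratio of 2.60.

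Gbp6 is hard to tell from its neighbours by short reads. Of the 50-base words of its transcripts, 70.7% also occur in another gene, 65.0% in Gm43302, which overlaps it, and 45.9% in Gbp10. In the other members that share was 0.3% (Irgm1) to 18.1% (Gbp8), and Gbp4 had 7.7%. With Gbp6, Gbp10 and Gm43302 added together as 1 gene, the log2 fold change was 1.32 (adjusted p = 0.0012).

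The other members of the chromosome 5 cluster moved less. Gbp8 was at 29.5, 35.1 and 31.4 in EV no IL-2 and at 47.7, 47 and 45.2 in EV+IL-2. The groups did not overlap, and the log2 fold change was 0.53 (SE 0.13, adjusted p = 0.017). Gbp8 was past the threshold under 17 of 23 alternative settings, with adjusted p from 0.0032 to 0.079, and it was not called with TPM as deposited, with no filter on low TPM, or when replicate 1 or 3 of EV no IL-2, or replicate 1 or 2 of EV+IL-2, was left out. Gbp9 was at 9.67, 14 and 12.3 without IL-2 and at 20.3, 15.4 and 14.2 with it. The libraries did not overlap, by a margin of 14 against 14.2, and the difference of 0.44 (SE 0.19, adjusted p = 0.17) did not pass the test.

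Igtp was the most abundant member and Gbp5 the least, on the per-length scale of TPM. IGTP and IRGM1 are regulatory IRGs that sit on the cell's own membranes and hold the effector IRGs inactive there. Igtp was at 253, 293 and 231 scaled TPM in EV no IL-2 and at 414, 428 and 337 in EV+IL-2, which did not overlap. Its log2 fold change was 0.60 (SE 0.12, adjusted p = 0.0082), and with Irgm2 added it was 0.59 (adjusted p = 0.0071). Irgm1 was at 59, 70.5 and 57.3 without IL-2 and at 83.5, 87.8 and 65.4 with it. Its groups overlapped, since EV+IL-2 replicate 3 was below EV no IL-2 replicate 2, and its difference of 0.33 (SE 0.14, adjusted p = 0.15) did not pass.

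The chromosome 3 members gave no call. GBP2 is a prenylated GBP that targets pathogen vacuoles, GBP5 promotes NLRP3 inflammasome assembly, and GBP7 has been linked to assembly of the phagocyte oxidase. Gbp7 was at 67.5, 80.8 and 80 scaled TPM in EV no IL-2 and at 100, 102 and 87.5 in EV+IL-2. All of the IL-2 libraries were higher, with a difference of 0.34 (SE 0.14, adjusted p = 0.16). Gbp2 was at 65.4, 73 and 61.6 without IL-2 and at 66, 69.2 and 54.1 with it, and Gbp5 was at 5.7, 6.68 and 6.97 and at 5.86, 7.17 and 6.17. For these genes the groups overlapped, and the 95% intervals of the difference were -0.49 to 0.32 for Gbp2 and -0.31 to 0.30 for Gbp5. Gbp3 was at 59.8, 60 and 61.4 without IL-2 and at 55.3, 56.2 and 49 with it. It alone had every IL-2 library below every control library, with a difference of -0.17 (SE 0.16, adjusted p = 0.57). Members with no overlap between the groups were thus 7 of 10, 6 higher and 1 lower, beside 39.6% of all genes tested.

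Summed over each cluster, the 4 genes of chromosome 5 were at 114 ± 15.1 scaled TPM (mean ± SD, n = 3 libraries) without IL-2 and at 262 ± 26.8 with it. The chromosome 3 genes were at 209.6 ± 11 and 219.5 ± 20, and the chromosome 11 genes at 321 ± 38.6 and 472 ± 60.9. These sums are descriptions without a test. Of the promoter windows, both motifs were present in Igtp, which was called, and in Gbp5 and Gbp7, which were not. The other called members, Gbp4, Gbp6 and Gbp8, had no window, so motifs cannot be set against calls here.

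**Figure D2:**
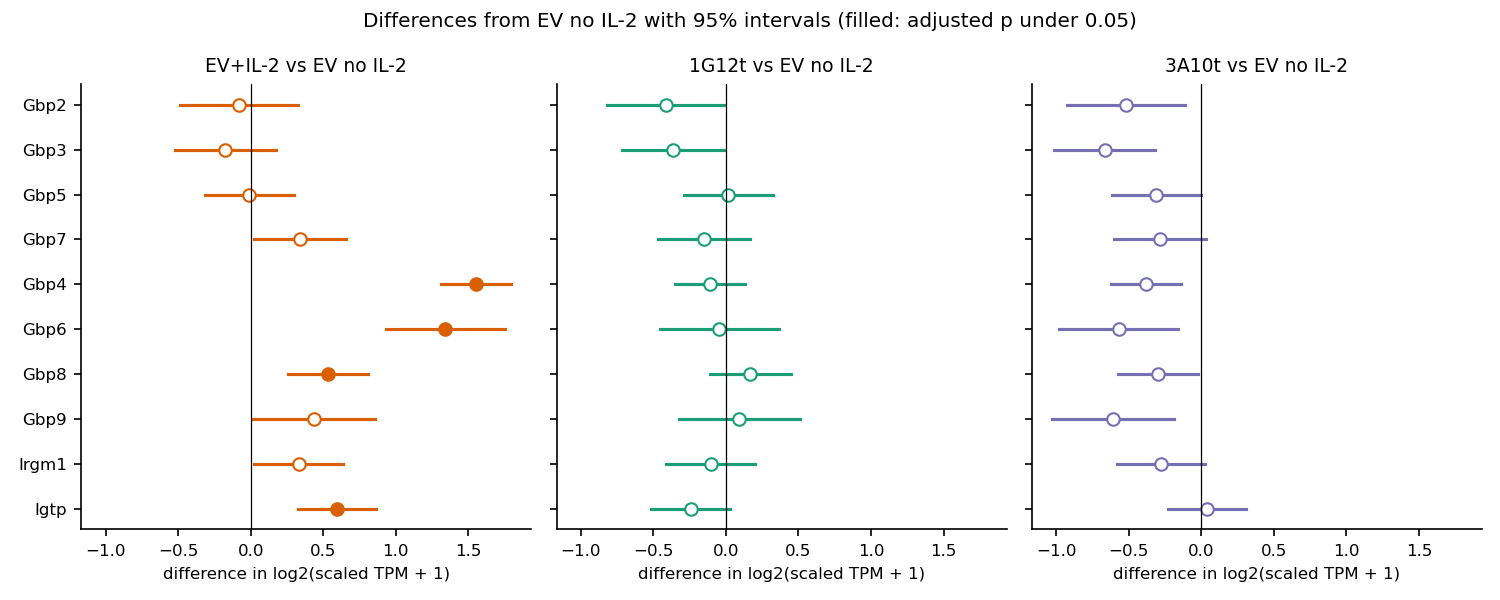
Difference in log2(scaled TPM + 1) from EV no IL-2 (horizontal axis) for each member (vertical axis) in the IL-2-treated group and the tethered groups. Lines are 95% intervals from limma, filled points have an adjusted p under 0.05 and open points do not. Filled points are Gbp4 (1.55), Gbp6 (1.34), Gbp8 (0.53) and Igtp (0.60) in EV+IL-2.

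Comparing the tethered groups with EV no IL-2 asks whether the tethered construct changed these genes in cells cultured without IL-2 after the wash. The construct holds both the agonist and the receptor chain. No group carried the receptor chain alone, so the parts of agonist and receptor cannot be told apart. No member was called in 1G12t or in 3A10t, including the 4 that rose with IL-2. In 1G12t 0.0199% of all genes were called (0.0133% higher and 0.00665% lower), and in 3A10t 2.05% (0.452% higher and 1.6% lower). At an unadjusted p under 0.05, 0 members were higher and 2 lower in 1G12t, beside 5.32% and 1.72% of all genes. In 3A10t 0 were higher and 7 lower at that p, beside 10.9% and 15.1%. The median log2 fold change of the members was -0.11 in 1G12t and -0.35 in 3A10t, beside 0.00 and 0.03 for all genes.

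In 1G12t Tregs, Gbp4 was at 40.5, 41.9 and 45.7 scaled TPM, overlapping EV no IL-2 with 1 library just below its lowest, and its difference was -0.11 with a 95% interval of -0.35 to 0.13. Gbp6 was at 21.9, 22.3 and 22.9, within the range of the control libraries, with an interval of -0.46 to 0.36. The upper bounds lie below the lower bounds of the IL-2 effect, 1.31 for Gbp4 and 0.93 for Gbp6. Igtp was at 244, 216 and 196, overlapping the control, with a difference of -0.24 (SE 0.12, adjusted p = 0.72). Gbp8 was at 35, 33.7 and 39.6, with a difference of 0.17 (adjusted p = 0.78), and Gbp9 at 10, 13.7 and 15, with 0.09 (adjusted p = 0.91). Both overlapped the control.

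Gbp2 and Gbp3 were the members with every 1G12t library below every control library. Gbp2 was at 55.5, 51.6 and 42.6, a difference of -0.42 (SE 0.18, adjusted p = 0.70). Gbp3 was at 48.8, 49.6 and 41.9, a difference of -0.37 (SE 0.16, adjusted p = 0.70). Among the 1G12t libraries, Gbp2, Gbp3, Irgm1 and Igtp were lowest in replicate 3, while Gbp4, Gbp6, Gbp7, Gbp8 and Gbp9 were highest there. Of all genes tested, 16.5% had no overlap between these groups. Gbp5, Gbp7 and Irgm1 were at 5.8 to 6.98, 64.5 to 73.9 and 52.8 to 63.3 in 1G12t, and each overlapped the control.

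In 3A10t Tregs, 9 of the 10 members had a mean below EV no IL-2, all but Igtp, and none passed an adjusted p of 0.05. By the study's own threshold, an unadjusted p under 0.01 with a log2 fold change beyond 0.25, Gbp3, Gbp4 and Gbp9 were lower, beside 6.67% of all genes. Gbp3 was at 50.6, 29.8 and 35.6, all below the control libraries, with a difference of -0.66 (SE 0.16, adjusted p = 0.060). Gbp4 was at 39.1, 34.2 and 32.4, again all below, with -0.38 (SE 0.11, adjusted p = 0.085). Gbp9 was at 9.08, 7.01 and 6.46, all below, with -0.61 (SE 0.19, adjusted p = 0.10). Irgm1 was at 55.8, 43.8 and 54.2, the fourth member with no overlap, and its difference was -0.28 (SE 0.14, adjusted p = 0.22). Over all genes, 25.4% had no overlap.

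The remaining 3A10t values overlapped the control. Gbp6 was at 19.1, 13.3 and 13.8, a difference of -0.57 (SE 0.19, adjusted p = 0.11). Gbp2 was at 62, 35.4 and 44.7, a difference of -0.52 (SE 0.18, adjusted p = 0.12). In each of these genes replicate 1 was within the control range and replicates 2 and 3 were below it. Gbp8, at 30.7, 21 and 26.5, Gbp7, at 79.1, 52.6 and 57.3, and Gbp5, at 6.31, 4.64 and 4.23, likewise had replicate 1 within the control range and the others below it. Igtp differed from the other members, at 247, 278 and 272, with a difference of 0.04 and a 95% interval of -0.23 to 0.31. Its sign turned to -0.11 with TPM as deposited and to -0.07 with quantile normalization.

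One library decided these calls. The median deviation of the 10 members from the EV no IL-2 mean was -0.13 in 3A10t replicate 1, the value that EV no IL-2 replicate 1 also had, and -0.55 and -0.50 in replicates 2 and 3. Without replicate 1, 8 members were called lower in 3A10t than in EV no IL-2 (Gbp2, Gbp3, Gbp4, Gbp5, Gbp6, Gbp7, Gbp8 and Gbp9), beside 15.2% of all genes in that fit. Without replicate 2 or replicate 3, no member was called. The same libraries, replicates 2 and 3, were the lowest of the 12 for all genes of 4 to 6 kb, as given above, although over 6 kb replicate 3 was not. With each library's trend on transcript length removed, the differences of Gbp4, Gbp9 and Gbp6 were -0.21, -0.43 and -0.40, with adjusted p of 0.21, 0.18 and 0.18. Gbp3, one of the shorter members, was at -0.63 (adjusted p = 0.059) after that removal. The part of transcript length in the remaining difference was not tested.

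**Figure D3:**
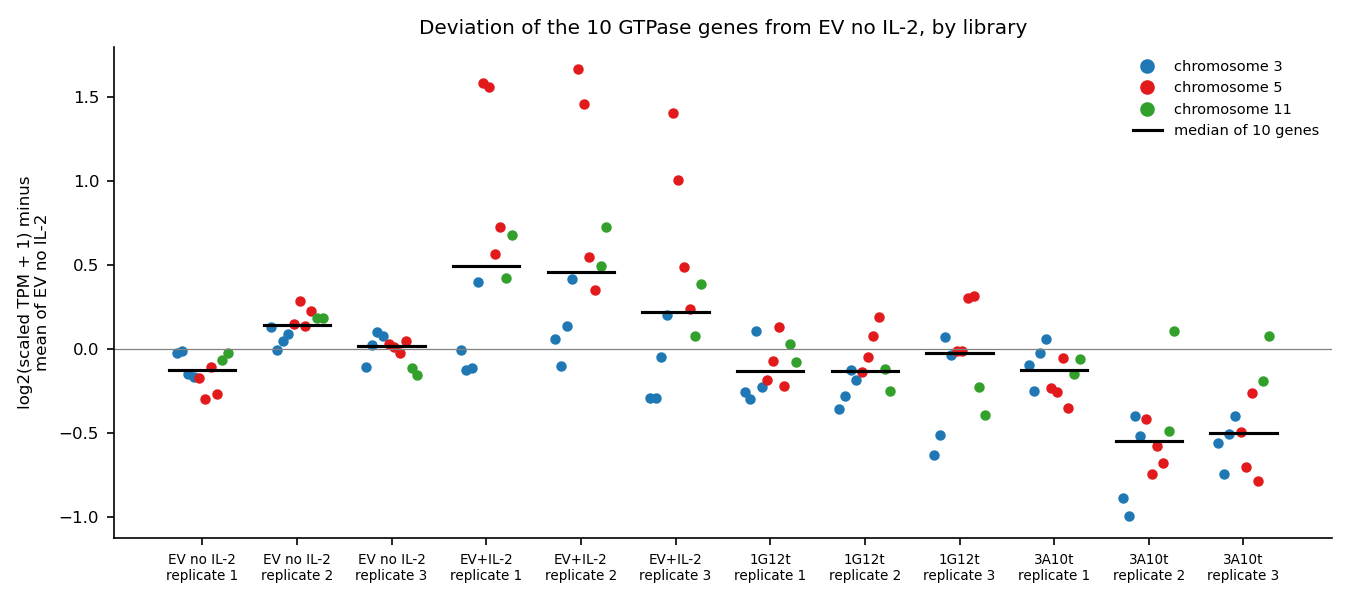
Difference of each member in each library from the mean of the EV no IL-2 libraries, in log2(scaled TPM + 1) (vertical axis), for the 12 libraries (horizontal axis). Points are genes, coloured by chromosome, and bars are the median of 10 genes, which runs from 0.22 to 0.49 in EV+IL-2, from -0.13 to -0.02 in 1G12t, and is -0.13, -0.55 and -0.50 in 3A10t.

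**Figure D4:**
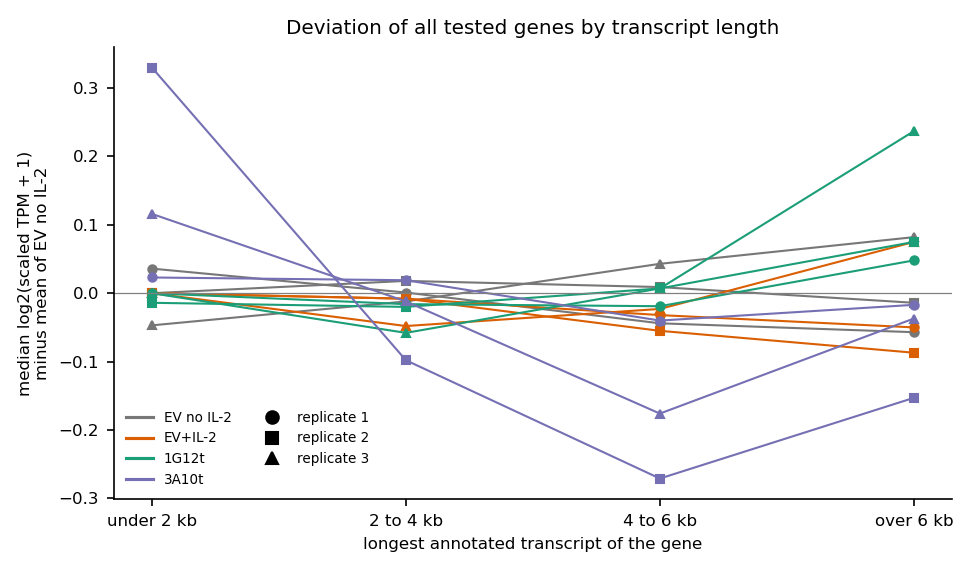
Median difference from the EV no IL-2 mean, in log2(scaled TPM + 1) (vertical axis), of all tested genes grouped by their longest annotated transcript (horizontal axis). Each line is a library. 3A10t replicate 2 goes from 0.33 under 2 kb to -0.27 at 4 to 6 kb and replicate 3 from 0.12 to -0.18, while replicate 1 stays between 0.02 and -0.04.

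The tethered variants were compared with each other directly, since 1G12t and 3A10t name constructs with different IL-2 variants. No member was called, beside 4.27% of all genes (1.3% higher and 2.96% lower in 3A10t). At an unadjusted p under 0.05, 5 members were lower in 3A10t and 1, Igtp, was higher, beside 15.7% and 14% of all genes. Gbp9 (-0.70, SE 0.19, adjusted p = 0.057) and Gbp8 (-0.47, SE 0.13, adjusted p = 0.057) were lower in 3A10t by the study's threshold, beside 7.06% of all genes. Their 3A10t libraries were all below their 1G12t libraries, as were those of Gbp4 and Gbp6. Igtp was higher in every 3A10t library than in any 1G12t library, by 0.29 (SE 0.12, adjusted p = 0.15). Of all genes tested, 26.2% had no overlap between these groups. Without 3A10t replicate 1, 6 members were called lower, beside 15.8% of all genes in that fit. With the length trend removed, Gbp9 and Gbp8 were at -0.50 and -0.36, with adjusted p of 0.12 and 0.071.

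Set against EV+IL-2, the tethered groups show how far the cells with a tethered agonist were from cells given IL-2. These comparisons share the EV+IL-2 libraries with the first one and are not independent of it. In 1G12t, 5 of 10 members were lower than in EV+IL-2 and none was higher, beside 10.9% of all genes called lower and 9.69% higher (20.6% in all). They were Gbp4 (-1.66, SE 0.11, adjusted p = 6.3e-06), Gbp6 (-1.39, SE 0.19, adjusted p = 0.00059), Igtp (-0.84, SE 0.12, adjusted p = 0.00098), Gbp7 (-0.49, SE 0.14, adjusted p = 0.033) and Irgm1 (-0.44, SE 0.14, adjusted p = 0.046). Gbp4, Gbp6 and Igtp were past the threshold under every alternative run. Irgm1 was past it under 9 of 23, with adjusted p up to 0.17, and Gbp7 under 16 of 23. With the replicate number as a block, Gbp7 was not called (adjusted p = 0.053). Leaving out EV+IL-2 replicate 1 or 2, or 1G12t replicate 1 or 2, left 3 calls.

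In 3A10t, 8 of 10 members were lower than in EV+IL-2 and none was higher, beside 13% of all genes called lower and 10.3% higher (23.4% in all). Gbp4 (-1.94, SE 0.11, adjusted p = 4.4e-06) and Gbp6 (-1.91, SE 0.19, adjusted p = 8.6e-05) fell furthest. Gbp9 (-1.05, SE 0.19, adjusted p = 0.0034) and Gbp8 (-0.83, SE 0.13, adjusted p = 0.0013) followed. Gbp7, Irgm1, Igtp and Gbp3 were lower by 0.49 to 0.63 on the log2 scale. Gbp3 was the weakest of the 8, with an adjusted p of 0.046 and overlapping groups, and it was called under 8 of 23 alternatives. The other 7 were called under every alternative, except Gbp7 and Irgm1 in a fit of only the 6 libraries compared. Gbp2 and Gbp5 were not called, at -0.44 (adjusted p = 0.11) and -0.30 (adjusted p = 0.14). The sum of 4 B cell markers also differed here, at 20.9 to 27.2 scaled TPM in 3A10t against 14.5 to 17.4 with IL-2, and 1 of them, Cd74, was called higher (0.95, adjusted p = 0.041). Its part in the result was not tested.

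The order of the group means was thus EV+IL-2, EV no IL-2, 1G12t, 3A10t for Gbp4, Gbp6, Gbp7 and Irgm1. In Gbp4 and Gbp6 EV+IL-2 was apart from its neighbour by the test, and the lower 3 groups were not apart from each other. In Gbp8 and Gbp9 the order was EV+IL-2, 1G12t, EV no IL-2, 3A10t, with no neighbours that differed by the test. In Gbp2 and Gbp3 the EV no IL-2 mean was highest, followed by those of EV+IL-2, 1G12t and 3A10t, and in these genes too no neighbours differed. In Gbp5 the means were 6.53 in 1G12t, 6.45 for the empty vector alone, 6.40 with IL-2 and 5.06 in 3A10t, again with no neighbours apart. In Igtp the order was EV+IL-2, 3A10t, EV no IL-2, 1G12t, and EV+IL-2 was apart from 3A10t. Over the 12 libraries, Gbp4 and Gbp6 had the highest correlation of log2 level (Pearson r = 0.98), followed by Gbp2 and Gbp3 (r = 0.93), and Gbp5 and Igtp had the lowest (r = 0.01). These values are descriptions, and the libraries share their groups and scaling.

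The rest of the family was looked at from a list of 17 further GBP and IRG genes, of which 15 were in the table and 13 passed the filter. In EV+IL-2, 5 of the 13 were higher than in EV no IL-2 and 3 were lower, beside 8.17% and 5.13% of all genes. Their median log2 fold change was 0.50, beside -0.01 for all genes. Gbp11, next to Gbp6 on chromosome 5, was at 0.85, 1.94 and 1.67 scaled TPM without IL-2 and at 12.8, 11.5 and 8.8 with it. That was the widest fold of the family, 7.42 by ratio of means (log2 fold change 2.29, SE 0.21, adjusted p = 4.2e-05), from a low level. Gbp11, annotated as a polymorphic pseudogene, shares words of 50 bases with Gbp4 (3.2% of those of Gbp4) and with Gbp8 (7.4% of those of Gbp8). It also shares them with Gbp6 (3.4% of those of Gbp6) and Gbp9 (1.7% of those of Gbp9). The shared part of Gbp11's own words was not computed. How far its value holds reads of these more abundant genes is therefore unknown.

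Of the effector IRGs, which load onto pathogen vacuoles, some were called higher with IL-2 and others were not. Iigp1 was at 4.07, 6.93 and 5.22 scaled TPM in EV no IL-2 and at 16.7, 16.6 and 12.6 in EV+IL-2, a log2 fold change of 1.36 (SE 0.24, adjusted p = 0.0037). Gm12250 (Irgb10) was at 17.6, 21.7 and 17.9 and at 44.6, 44.6 and 33.8, a log2 fold change of 1.06 (SE 0.13, adjusted p = 0.00033). Neither had an overlap between the groups. Gm4951 (1.60, SE 0.18, adjusted p = 0.00015) and Tgtp1 (0.94, SE 0.21, adjusted p = 0.013) rose as well. Tgtp2, nearly identical to Tgtp1, was at 0.17 (adjusted p = 0.56), and the split of reads between that pair is uncertain. Of the further family genes, not all of them effector IRGs, Irgm2 (0.50), Ifi47 (0.28), Gbp10 (0.81) and Gvin1 (0.35) were not called. Their adjusted p were 0.16, 0.14, 0.086 and 0.45. Gm4841 and F830016B08Rik were at 0.12 to 0.80 scaled TPM and were not tested.

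The 3 family genes that fell with IL-2 were Gbp2b and the paired IRG-like genes 9930111J21Rik1 and 9930111J21Rik2. Gbp2b (also called Gbp1), which lies beside Gbp2, was at 16.9, 20.2 and 22.3 scaled TPM in EV no IL-2 and at 10, 10.9 and 7.34 in EV+IL-2. Its log2 fold change was -1.0 (SE 0.27, adjusted p = 0.034), and the groups did not overlap. 9930111J21Rik1 was at -0.88 (SE 0.25, adjusted p = 0.041) and 9930111J21Rik2 at -0.78 (SE 0.20, adjusted p = 0.026). Over the alternatives, the count of family genes called lower ran from 0 to 3 and that called higher from 3 to 6. The neighbours of Gbp2b on chromosome 3, Gbp3 and Gbp2, were not called.

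In the tethered groups, 0 of these 13 genes were called against EV no IL-2 in 1G12t, with 0 at an unadjusted p under 0.05 in either direction. Of all genes, 0.0199% were called, and 5.32% were higher and 1.72% lower at that p. In 3A10t 0 were called as well, beside 2.05% of all genes. At the unadjusted p, 0 were higher and 4 lower in 3A10t, beside 10.9% and 15.1% of all genes. Irgm2 was at 18.3, 9.7 and 9.32 scaled TPM in 3A10t against 21.1, 25.1 and 22.9 in EV no IL-2, a log2 fold change of -0.90 (SE 0.21, adjusted p = 0.060). 9930111J21Rik1 was the 1 family gene lower in 3A10t than in 1G12t (-1.14, SE 0.25, adjusted p = 0.040), beside 2.96% of all genes. Over the alternatives, 0 to 4 family genes were called lower there. Against EV+IL-2, 7 of the 13 were lower in 3A10t and 0 higher, beside 13% and 10.3% of all genes. Among the 7 were Gbp11 (-2.12, adjusted p = 9.1e-05), Iigp1 (-1.80, adjusted p = 0.00063), Gbp10 (-1.57, adjusted p = 0.0031) and Irgm2 (-1.40, adjusted p = 0.0013). In 1G12t 7 were lower and 2, 9930111J21Rik1 (0.96, adjusted p = 0.022) and 9930111J21Rik2 (1.03, adjusted p = 0.0049), were higher. Of all genes, 10.9% were lower there and 9.69% higher.

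**Figure D5:**
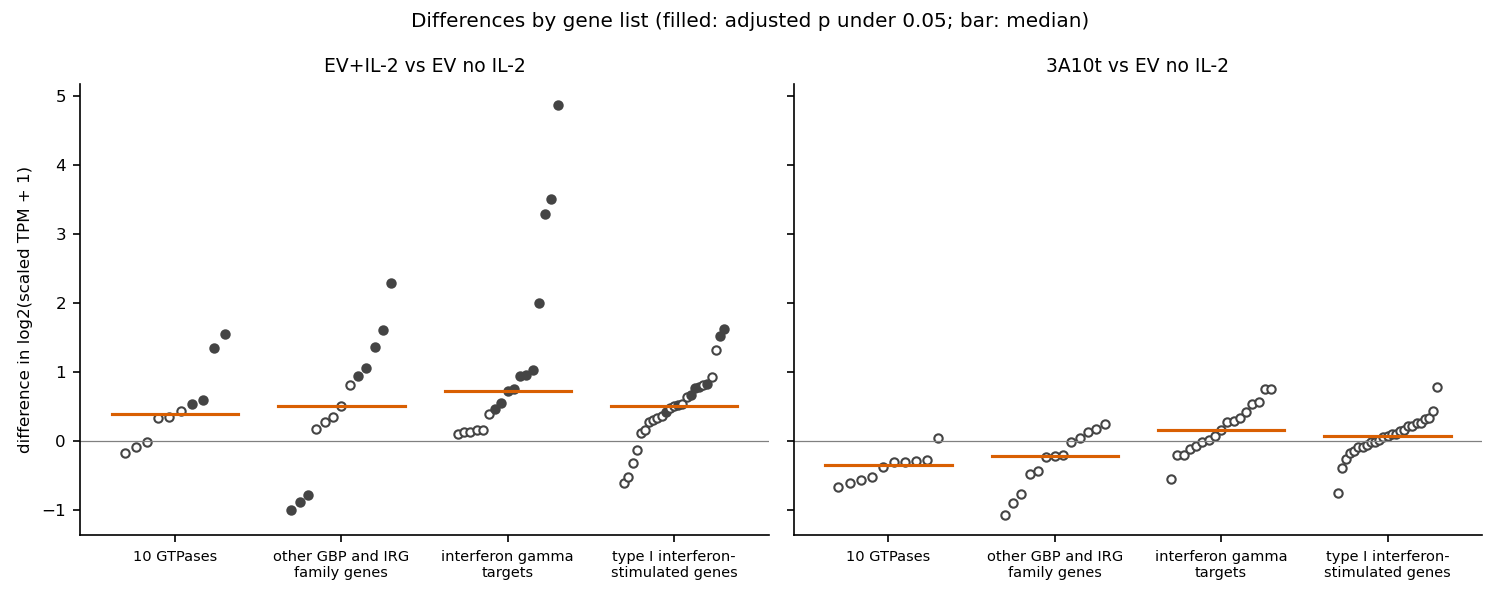
Difference in log2(scaled TPM + 1) (vertical axis) of each tested gene of 4 lists (horizontal axis), in EV+IL-2 and in 3A10t against EV no IL-2. Filled points have an adjusted p under 0.05 and orange bars are medians, which in EV+IL-2 are 0.39 for the 10 GTPases, 0.50 for the other family genes, 0.72 for interferon gamma targets and 0.51 for type I interferon-stimulated genes. No point is filled in 3A10t.

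Genes of interferon signalling were taken from a list of 16 interferon receptors, kinases and transcription factors, of which 14 passed the filter. In EV+IL-2, 4 were higher and 2 lower, beside 8.17% and 5.13% of all genes, and the median was 0.10. Socs1, the feedback inhibitor of JAK signalling, was at 199, 192 and 155 scaled TPM without IL-2 and at 453, 465 and 406 with it, a log2 fold change of 1.28 (SE 0.12, adjusted p = 6.0e-05). The groups did not overlap. Irf8 (-0.83, SE 0.11, adjusted p = 0.00059) and Jak1 (-0.57, SE 0.13, adjusted p = 0.015) fell. Irf1, a transcription factor induced by interferon gamma that acts on GBP genes, was at 0.24 (SE 0.07, adjusted p = 0.055) and was not called. Ifng itself was at 0.52 to 0.93 scaled TPM with IL-2 and at 0.59 to 0.89 without it, and its highest value was 2.63 in 1G12t replicate 3. In 3A10t, Stat2 was the 1 gene of this list called against EV no IL-2, at -0.65 (SE 0.13, adjusted p = 0.038), and it was lower than in 1G12t too (-0.56, SE 0.13, adjusted p = 0.043). Over the alternatives, 0 to 5 genes of the list were called lower in 3A10t than in EV no IL-2, and 0 to 3 lower than in 1G12t. In 1G12t no gene of the list was called against EV no IL-2, with 1 higher and 0 lower at an unadjusted p under 0.05. Of all genes, 5.32% were higher and 1.72% lower at that p.

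Targets of interferon gamma outside the family rose with IL-2 in 11 of 17 tested genes and fell in 0. Of all genes, 8.17% were called higher and 5.13% lower. Ifitm1 was at 1.15, 1.48 and 1.05 scaled TPM without IL-2 and at 71.9, 53.3 and 67.1 with it, a log2 fold change of 4.86 (SE 0.33, adjusted p = 7.9e-06). IFITM proteins restrict the entry of viruses, and Ifitm3 (3.51, SE 0.23, adjusted p = 6.7e-06) and Ifitm2 (3.29, SE 0.33, adjusted p = 8.9e-05) rose with Ifitm1. Serpina3g, a serine protease inhibitor of activated T cells, rose by 2.00 (SE 0.25, adjusted p = 0.00037). At an unadjusted p under 0.05, 12 genes of this list were higher and 0 lower, beside 13.9% and 12.4% of all genes. The median was 0.72. In 1G12t and in 3A10t no gene of the list was called against EV no IL-2, with 1 higher and 0 lower, and 6 higher and 1 lower, at that p. The shares of all genes at that p were 5.32% higher and 1.72% lower in 1G12t, and 10.9% and 15.1% in 3A10t. Against EV+IL-2, 12 were lower in 1G12t and 10 in 3A10t, beside 10.9% and 13% of all genes. Between the tethered groups Cd274 (PD-L1) was lower in 3A10t, by 0.90 on the log2 scale (SE 0.15, adjusted p = 0.021). Over the alternatives, 0 to 2 genes of this list were called lower there. 1G12t replicate 3 stood above the other tethered libraries in Ifitm1, at 6.06 scaled TPM against 1.23 to 3, and in Serpina3g, at 61.4 against 24.9 to 43.2.

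Of 25 tested genes known for type I interferon, 8 were higher with IL-2 and 0 lower, with 13 higher and 2 lower at an unadjusted p under 0.05. Of all genes, 8.17% were called higher and 5.13% lower, with 13.9% higher and 12.4% lower at that unadjusted p. The called genes with the widest change were Rtp4 (1.62, SE 0.32, adjusted p = 0.0068), Isg20 (1.52, SE 0.21, adjusted p = 0.00082), Zbp1 (0.83, SE 0.10, adjusted p = 0.00024) and Xaf1 (0.79, SE 0.21, adjusted p = 0.033). Rtp4 was at 50.4 in EV+IL-2 replicate 1 and at 27.8 and 21.2 in replicates 2 and 3, against 8.39 to 11.6 without IL-2. None of the 25 was called in 1G12t or 3A10t against EV no IL-2, with 1 higher and 0 lower, and 2 higher and 2 lower, at that unadjusted p. The shares of all genes were 5.32% higher and 1.72% lower in 1G12t, and 10.9% and 15.1% in 3A10t.

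Genes of processes linked to GBP and IRG proteins did not move as a group with IL-2. None of 10 genes of ATG8 conjugation, the autophagy machinery that guides GBPs and IRGs to their targets, was called with IL-2, with 1 higher and 0 lower at an unadjusted p under 0.05. None of 6 tested inflammasome genes was called, with the same counts at that p. Of 5 genes of prenylation, the pathway that gives some GBPs a lipid anchor, Fntb, the beta subunit of farnesyltransferase, was higher (0.41, SE 0.10, adjusted p = 0.024). The other 4 were not called, and the enzymes that act on GBPs were not studied here. The medians of these lists lay between -0.010 and -0.005. Over all genes, 8.17% were called higher, and 13.9% were higher and 12.4% lower at an unadjusted p under 0.05. Against EV+IL-2, Gabarapl1 was lower in 3A10t (-0.47, adjusted p = 0.028) and in 1G12t (-0.60, adjusted p = 0.0094). Fntb was lower in both (-0.43 and -0.35, adjusted p = 0.015 and 0.035), and Atg16l1 in 3A10t (-0.43, adjusted p = 0.049). No gene of these lists was higher, and 13% (3A10t) and 10.9% (1G12t) of all genes were lower.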

How the data were processed

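Tregs were sequenced as polyadenylated, unstranded full-length cDNA in 50-bp pairs. Per the submitters' processing notes, the authors used cutadapt 1.18, STAR 2.5.3, RSEM 1.3.0 and DESeq2 1.26 on GRCm38 (mm10). The deposited values were TPM per gene from the authors, without counts, so a count model could not be run. RSEM divides reads shared by similar genes by an estimate. Here TPM were divided by median-of-ratios factors, genes with a mean of at least 1 TPM were kept (15043 of 55228), and log2(scaled TPM + 1) of all 12 libraries was fitted with limma 3.58.1 in R 4.3.3 (lmFit, eBayes with a trend). A call is a Benjamini-Hochberg adjusted p under 0.05 over all genes tested, two-sided. The pseudocount of 1 understates fold changes of low genes. The code of the fit was checked on simulated data with independent normal noise for each gene. Those data held no length trend, no odd library and no shared reads, so the check says nothing of these.

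Groups and replicate numbers are those of the labels. Replicate numbers were taken to mark a shared sort of the pooled Tregs, which would pair the libraries by number. The main fit did not use this pairing. Same-numbered libraries of different groups had a mean correlation of their deviations of 0.041 over 18 pairs (-0.11 to 0.15). Over the 36 other pairs it was -0.020 (-0.13 to 0.13), so the pairing is not clear from the values. Alternatives were pseudocounts of 0.1 and 5, no expression filter or one at a mean of 5 TPM, quantile-normalized or unscaled TPM, a fit of the 6 libraries of a comparison, a replicate block, no eBayes trend, and leaving out each library. After seeing the data, a lowess removal (span 0.3) of the trend on transcript length, with and without the block, and sums of genes that share reads were added.

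Gene models, transcripts and coding identity are from GENCODE M21 on GRCm38, and promoter windows from RefSeq GRCm38.p6. Transcript lengths were matched for 14857 of 15043 genes. The 10 members, the gene lists and the naming rule (all members, every further family gene in the table, and up to 4 called genes of each other list by size of change, with Irf1 and Ifng added after their values were seen) were chosen with earlier results of these data known. The libraries are of 1 pool of mice, so p-values measure the spread between cultures and sorts. Protein sequences were not used here. The values of 1 gene that the naming rule would include are not reported here.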

Additional observations from a re-analysis of the deposited data

How the results depend on the processing

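Of 1392 repeats of the 60 member results under the alternatives, 1294 kept direction and side of the threshold, 42 lost and 29 gained a call, and 27 changed sign. Gbp4, Gbp6 and Igtp were called higher with IL-2 in every one. The count of members called lower in 3A10t against EV no IL-2 was 0, and it was 1 with a mean TPM of at least 5 or TPM as deposited, 3 by the study's threshold, and 0 to 8 when 1 library was left out (8 without 3A10t replicate 1). Against 1G12t it was 0, and it was 2 with a mean TPM of at least 5, 3 with TPM as deposited, 2 by the study's threshold, and 0 to 6 when 1 library was left out (6 without 3A10t replicate 1). Against EV+IL-2, 8 were lower in 3A10t, and 5 with only the 6 libraries compared, and 5 were lower in 1G12t, and 3 with TPM as deposited or quantile normalization, and 3 to 6 when 1 library was left out. The causes were not tested.

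Sign changes fell on members that were not called. Gbp5 was at 0.02 in EV+IL-2 against EV no IL-2 with the length trend removed, with and without the replicate block, and at -0.083 to 0.044 when 1 library was left out. Gbp2 there ran from -0.151 to 0.023. Igtp in 3A10t against EV no IL-2 was at -0.107 with TPM as deposited, -0.069 with quantile normalization, -0.03 with the length trend removed (with and without the block), -0.014 with Irgm2 added, and -0.037 to 0.134 when 1 library was left out. In 1G12t against EV no IL-2, Gbp5 was at -0.086 with quantile normalization, and leaving out 1 library gave -0.059 to 0.087 for Gbp5, -0.196 to 0.098 for Gbp6 and -0.042 to 0.25 for Gbp9. In 3A10t against 1G12t, Gbp7 was at 0.074 with the length trend removed (with and without the block) and Gbp2 at -0.31 to 0.085 when 1 library was left out. Gbp5 in 1G12t against EV+IL-2 was at -0.03 with quantile normalization and -0.028 to 0.098 when 1 library was left out.

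With the replicate block alone, 4 members were called higher with IL-2, 8 lower in 3A10t and 4 lower in 1G12t than in EV+IL-2, and 0 in the other comparisons, and Gbp7 in 1G12t (-0.49) was the 1 call it changed. Without a filter on low TPM, the median of all genes moved to 0.20 in the comparisons of the tethered groups with EV+IL-2, and with TPM as deposited to -0.18 in 3A10t against 1G12t. Among the lists in EV+IL-2 against EV no IL-2, the alternatives gave 10 to 12 interferon gamma targets higher, 4 to 10 type I genes higher and 1 to 5 receptors, kinases and factors higher. Depth is unknown, which limits what can be said of members and family genes at a few TPM, such as Gbp5, Gbp10 and Gbp11.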

Other observations

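The genes outside all lists whose log2 level over the 12 libraries was most like the mean of the centred members were Adpgk, an ADP-dependent glucokinase (Pearson r = 0.973), Lrrc32, which encodes GARP, the Treg surface protein that holds latent TGF-beta (r = 0.972), Pros1 (r = 0.970), the maintenance DNA methyltransferase Dnmt1 (r = 0.969) and the centromere chaperone Hjurp (r = 0.969), of 9944 candidates with a mean of at least 5 TPM. Lrrc32 had a mean of 94.9 scaled TPM without IL-2 and 174 with it, beside 90.7 (1G12t) and 67.8 (3A10t). Dnmt1 had means of 32.6, 48.6, 32.8 and 26.9 in the same order. The candidates were ranked on the same libraries as the members, so these values are a description.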
